A study of Mus musculus with 156 samples.

Results

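The genes described here encode histones and were measured in poly(A)-selected RNA of mouse embryonic stem cells. They were taken by name, as genes whose symbol begins with Hist1h to Hist4h, H1f, H2ac, H2bc, H3c or H4c followed by a digit. Of 40914 genes in the deposited tables, 68 carried such a name, and 28 of these reached a mean of at least 10 counts per library over all libraries. The 28 genes comprised 5 of the linker histone H1, 6 of H2A, 8 of H2B, 6 of H3 and 3 of H4. Just above the minimum were H2bc8 with a mean of 10.3 counts, H3c11 with 10.4 and Hist1h2bp with 10.5. Just below it were H2ac12 with 8.87, H2bc3 with 8.84 and H3c2 with 8.74. All 28 passed the filter on low counts in both time courses.

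Histones are the proteins around which DNA is wound. Pairs of H2A, H2B, H3 and H4 form the core of the nucleosome, and H1 binds the DNA between nucleosomes. Most core histone genes and several H1 genes are replication-dependent: they are transcribed mainly in S phase, lie in clusters, and give mRNAs that end in a conserved stem-loop, bound by the protein SLBP, in place of a poly(A) tail. A poly(A) selection therefore recovers few of these transcripts, and a minority that uses a downstream poly(A) signal is known. H1f0 and H1f10 are linker histone genes of the other kind: they are expressed outside S phase and their mRNAs are polyadenylated. The summed levels below leave these 2 genes out and cover the other 26, which are called replication-dependent here by their gene family and not from a measurement.

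The study followed expression after induction of Firre, a long noncoding RNA transcribed from the X chromosome. There were 4 lines: a WT control, a WT line with a doxycycline-inducible Firre transgene, a Firre KO control, and a KO line with the same kind of transgene, the controls being genetically matched to the transgene lines. The long course held 3 replicates of each line at 0, 720, 1440, 2880 and 5760 min of doxycycline, in 60 libraries. The short course held 2 replicates of each line every 30 min from 0 to 330 min, in 96 libraries. All lines, controls included, received doxycycline, so in the control lines effects of the drug, of medium age and of culture time cannot be told apart. All grew in serum with LIF, PD0325901 (a MEK inhibitor) and CHIR99021 (a GSK3 inhibitor). What drives the transgene, how the KO was made and whether a line is 1 clone are not given in the sources used here, nor is whether replicates were separate cultures, so p-values measure only the spread between these samples.

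Estimated counts per library summed to between 18961799 and 47948630 in the long course and between 19013652 and 37195019 in the short course. The 26 genes together held only 588 to 2366 counts in a library, so most of them were measured at low depth. Firre at 0 min of the long course was at 24.2 ± 0.58 TPM (a level scaled to library size and corrected for transcript length; SD, n = 3) in WT and 0.390 ± 0.14 in KO control cells. It reached 49.4 ± 1.87 in the KO transgene line at 720 min. The stem cell factors were high in every library, with Pou5f1 between 791 and 1252 TPM and Nanog between 548 and 751. Summed markers of other cell types were low, at 1.34 to 3.91 TPM for primitive endoderm and 1.98 to 7.88 for trophoblast.

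The stem-loop that replaces the poly(A) tail can be read in the annotated transcripts of 18 of the 28 genes, from GENCODE M21, searched as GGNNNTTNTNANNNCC within 100 bases after the stop codon. It was found in 25 of the other 40 histone genes and in 0.192% of other coding transcripts. The transcript models of 11 of the 28 genes, H1f0 and H1f10 among them, also hold the letters AATAAA or ATTAAA after the stop codon, the form of a poly(A) signal. There were 6 distinct stem-loop sequences, and the most common stood in 11 genes. The 9 shown here cover every class and the genes that the results turn on, with the 16 bases of stem and loop in capitals and 5 flanking bases on each side.
H1f2: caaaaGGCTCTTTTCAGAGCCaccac
H2ac11: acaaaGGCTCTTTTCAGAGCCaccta
H2bc11: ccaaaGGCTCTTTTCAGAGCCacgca
H2bc12: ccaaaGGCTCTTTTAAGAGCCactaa
H3c3: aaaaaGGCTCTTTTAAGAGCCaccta
H3c8: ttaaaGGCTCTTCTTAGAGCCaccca
H4c9: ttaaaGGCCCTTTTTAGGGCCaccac
H4c4: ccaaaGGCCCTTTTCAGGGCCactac
H4c2: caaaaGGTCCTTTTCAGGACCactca
The most common form, shown here for H1f2, H2ac11 and H2bc11, was also found in an H3 gene, H3c1, whereas the 3 H4 genes have other letters in the stem. Of the 26 genes besides H1f0 and H1f10, 8 had no match. The models of 4 of these (H2ac10, H2ac13, H3c10 and H3c11) hold at most 1 base after the stop codon. Those of 3 others (H2bc4, H2bc21 and Hist1h2bq) hold poly(A) signal letters and no stem-loop, and that of H1f1 holds neither.

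Of the 28 genes, 25 lie on chromosome 13, H1f0 on chromosome 15, H1f10 on chromosome 6 and H2bc21 on chromosome 3 (mm10). RefSeq promoter sequences (GRCm38.p6, the bases around each gene's start) were found for 22 of them. On either strand, CCAAT stood in 18 of the 22, against 41.1% of 27025 genes, and TATAAA in 10, against 15.7%. ATTTGCAT, the octamer letters, stood in 5 (3 H2B and 2 H2A genes), against 1.97%, and TTTCGCGC, the letters of an E2F-type site, in 4 (2 H2A and 2 H2B genes), against 0.374%. The promoters of H2bc12 and H2bc11, H2B genes called in several comparisons below, are shown with these 4 motifs on either strand in capitals. A match of letters describes the window and does not show binding.
H2bc12, chr13:22035571-22035870, + strand: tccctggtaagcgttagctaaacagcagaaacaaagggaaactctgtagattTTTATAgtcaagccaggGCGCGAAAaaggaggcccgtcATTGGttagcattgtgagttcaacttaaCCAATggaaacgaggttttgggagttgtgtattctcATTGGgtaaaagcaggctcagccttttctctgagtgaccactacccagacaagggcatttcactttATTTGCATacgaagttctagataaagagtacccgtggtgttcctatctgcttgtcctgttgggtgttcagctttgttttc
H2bc11, chr13:22042948-22043247, + strand: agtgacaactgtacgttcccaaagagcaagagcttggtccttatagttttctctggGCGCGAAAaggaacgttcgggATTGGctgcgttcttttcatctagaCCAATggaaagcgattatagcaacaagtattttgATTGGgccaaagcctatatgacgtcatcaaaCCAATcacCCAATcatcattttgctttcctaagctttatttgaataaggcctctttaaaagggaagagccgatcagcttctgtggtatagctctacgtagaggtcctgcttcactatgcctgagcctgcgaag
The windows of H2bc11 and H2ac11 overlap, since the 2 genes are transcribed in opposite directions from neighbouring starts. Those of H2bc8 and H2ac8 overlap in the same way. A site in a shared stretch was counted for both genes of such a pair. This holds for the TTTCGCGC of H2bc11 and H2ac11 and the ATTTGCAT of H2bc8 and H2ac8.

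Levels differed widely among the 28 genes. The highest were the 2 polyadenylated linker histone genes, H1f10 with a mean of 37.2 TPM over all libraries (20.5 to 51.0) and H1f0 with 31.3 (24.2 to 39.7). Their order turned between the courses: H1f10 had a mean of 28.5 TPM in the long and 42.7 in the short course, H1f0 33.7 and 29.9. In counts scaled to library size (CPM), H1f0 was the higher in both courses, at 51.2 against 16.9 (long) and 42.6 against 22.8 (short). Among the replication-dependent genes H2ac11 led with 14.8 TPM (9.03 to 26.6), followed by H3c3 with 14.0 (7.88 to 22.6) and H4c9 with 12.6 (8.35 to 18.8), whose ranges overlapped. H3c10 had a mean of 8.94 TPM, H2ac13 of 7.45, H2bc12 of 6.70, Hist1h2ap of 6.03 and H2bc4 of 4.53. The other linker genes were far lower, at 3.21 for H1f2, 2.54 for H1f1 and 0.0925 for H1f3. The lowest core histone genes in TPM were H2bc21 with 0.444 and Hist1h2bq with 0.463, the latter listed at 0 in 8 libraries. These ranks depend on transcript length, by which TPM are corrected. H2bc21, with a model of 2620 bases, had 0.776 CPM in the long course, above H3c11 with 0.445 CPM and a model of 411 bases. The model of H1f3 has 7425 bases.

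**Figure D1:**
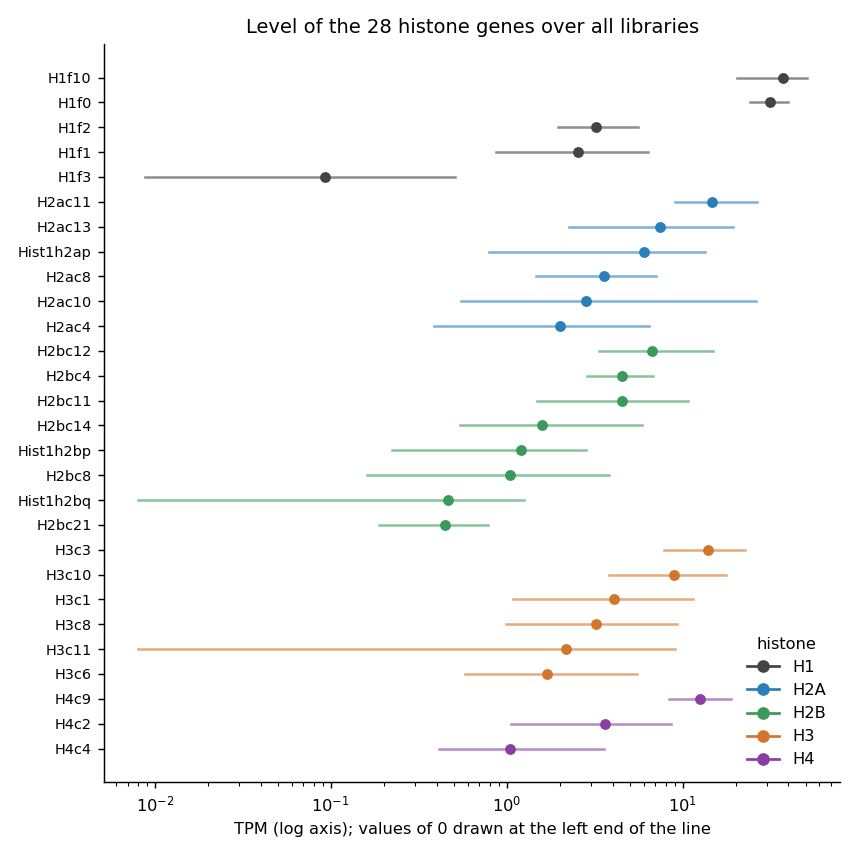
Level of each of the 28 histone genes in TPM on a log axis, drawn as its mean and range over the libraries and ordered by class and mean. H1f10 and H1f0 stand above every replication-dependent gene, of which H2ac11 is highest with a mean of 14.8 TPM.

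Many of these genes are near-identical copies, and their split into single genes is uncertain. In the annotated transcripts, 18 of the 28 genes shared more than 50% of their 31-base words with another gene, and in 6 fewer than 10% of the words were unique. H1f1, with 99.7% unique words, H1f0 with 93.4% and H1f2 with 88.6% could be told from other genes almost throughout. H2bc11 had 32.8%, H2bc12 24.7%, H4c2 22.9%, H2ac11 20.2%, H3c6 15.6%, H2ac13 7.99% and Hist1h2ap 6.64%, so reads of these genes may have been shared with their copies. H2ac10, with 5.69%, stood at 26.2 TPM in 1 library, the first WT control replicate at 300 min, against 6.77 at most in the other 155 libraries. The libraries were also not stranded, so neighbouring genes on opposite strands cannot be separated where they overlap.

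Before any comparison, 2 libraries have to be set apart. Replicate 3 of the WT control at 1440 min (long course) held 2283 TPM of small noncoding RNAs that are made without a poly(A) tail, against 29.7 and 39.4 in the other 2 replicates, and 1541 of this came from Rn7s1, an RNA of the signal recognition particle. Replicate 2 of the KO control at 180 min (short course) held 1239 TPM of them. The other 154 libraries held 15.6 to 229. Histone transcripts were high in the same 2 libraries: the 26 replication-dependent genes summed to 201 and 180 TPM there, against 83.6 to 176 in the other 154. The 40 histone genes below the count minimum summed to 123 and 76.3 TPM, against 13.3 to 43.0 elsewhere.

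The rise in these 2 libraries differed between histone genes. In the WT library 23 of the 26 genes stood above the mean of the other replicates, with a median ratio of TPM levels of 2.54 (0.747 to 7.45), and in the KO library 21 of 26 did, with a median of 1.84 (0.339 to 5.00). The 17 genes whose models hold no poly(A) signal letters had a median ratio of 2.91 and 2.01 in the 2 libraries. The 9 that hold them had 1.30 and 1.13. Among the 17 are H2ac10, H2ac13, H3c10 and H3c11, whose models hold at most 1 base after the stop codon. Split by stem-loop instead, the 18 genes with one had a median of 1.87 in the WT library and 1.95 in the KO library. The 8 genes without one had 2.91 and 1.72. H1f3 stood 7.45 times and 3.24 times as high, H2bc8 5.57 and 3.71 times, H2ac4 4.95 and 4.09 times, and H4c4 4.28 and 3.20 times. H1f3 and H4c4 are among the 9 genes with signal letters, so ratios overlapped between genes with and without the letters. The polyadenylated H1f0 was at 0.839 and 1.08 times the other replicates, H1f10 at 0.840 and 0.999, and H4c9, which has the signal letters, at 0.885 and 1.11. Of the 28 genes, 16 had their highest level of all libraries in 1 of these 2. Results that rest on either library are therefore given with and without it.

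**Figure D2:**
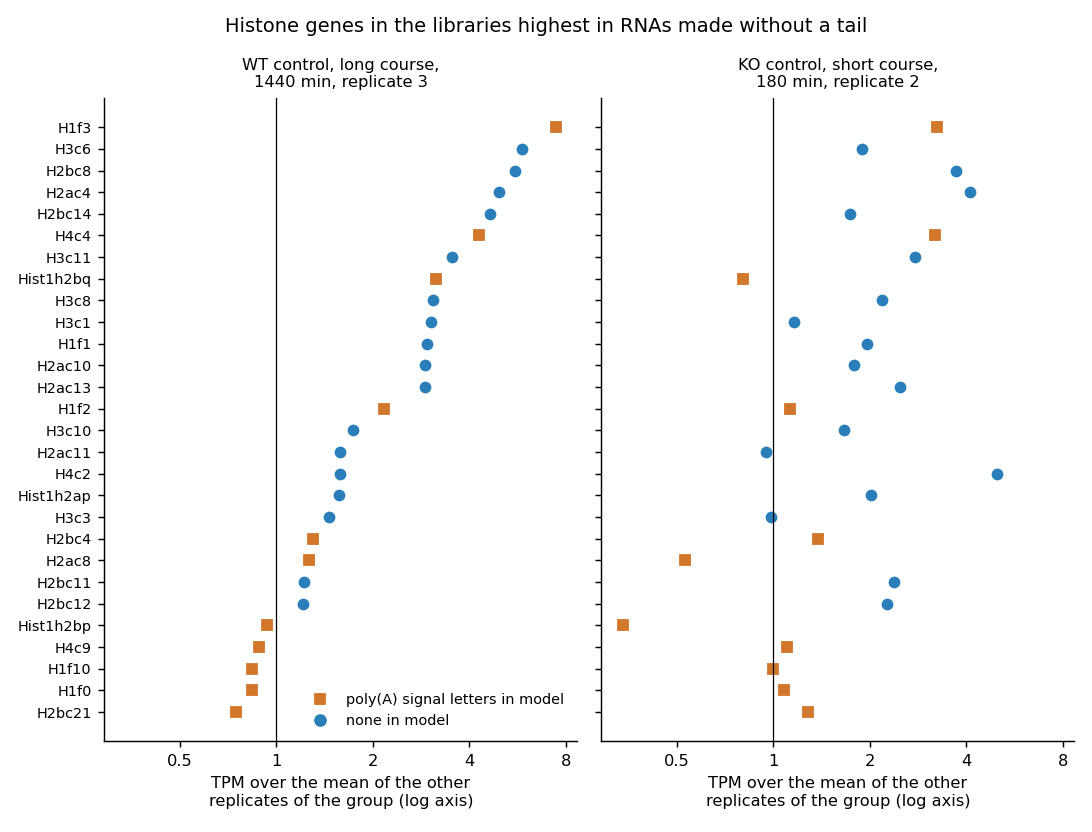
Each histone gene's TPM in a library high in RNAs without a poly(A) tail, divided by the mean of that group's other replicates, shown on a log axis for the WT control at 1440 min and the KO control at 180 min. Genes without poly(A) signal letters lie mostly above a ratio of 1, with medians of 2.91 and 2.01; genes with them have medians of 1.30 and 1.13, with H1f3 and H4c4 as the highest. H1f0 and H1f10 are shown but are in neither median.

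The KO and WT control lines differed in histone transcripts at 0 min of the long course, before induction. Of the 28 genes 11 were called higher in the KO control (all genes tested, 16.5%) and 1 was called lower (18.6%), by edgeR's quasi-likelihood test with an adjusted p of at most 0.05 over 17565 genes. The median log2 fold change of the 28 was 0.47, against -0.01 over all genes tested, and 25 of 28 were positive. The genes called higher were thus a larger share of the histone genes than of all genes. Summed over the 26 replication-dependent genes, the WT control stood at 102, 115 and 119 TPM (mean 112 ± 8.76, SD, n = 3) and the KO control at 165, 155.6 and 164 (162 ± 5.2). The 3 KO libraries were all above the 3 WT libraries. For all 28 genes summed, the lines differed less in counts scaled to library size (CPM) than in TPM, as given in the last section. That sum includes H1f0, with a long-course mean of 51.2 CPM and 33.7 TPM, against 3.25 CPM and 15.6 TPM for H2ac11. H1f0 thus weighs more in the sum of CPM, and no sum of CPM is given for the 26 genes alone. The 40 histone genes below the count minimum had 24.4, 24.3 and 22.6 TPM in the WT control and 34.7, 30.9 and 33.3 in the KO control. In bulk RNA, fewer cells expressing a gene and less RNA per cell cannot be told apart, and the share of cells in S phase was not measured.

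Among the linker histone genes none was called higher with all libraries in the fit. H1f0 was the one gene called lower, with 31.9, 35.3 and 32.5 TPM in the WT control and 30.3, 30.97 and 29.5 in the KO control, which gave a log2 fold change of -0.12 ± 0.04 (SE; adjusted p = 0.0315, edgeR). All 3 KO libraries were below the 3 WT libraries by a small margin. H1f10 was at 25.6, 25.2 and 24.5 TPM in the WT control and 26.96, 27.4 and 29.4 in the KO control, with no overlap, and was not called. H1f1 (3.11, 2.59 and 3.17 against 3.57, 4.38 and 4.89 TPM) and H1f2 (2.52, 2.44 and 3.15 against 3.30, 3.49 and 3.69) also had every KO library above every WT library and were not called.

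Of the 6 H2A genes 5 were called higher. H2ac11 stood at 14.5, 15.8 and 13.1 TPM in the WT control and 19.6, 21.3 and 25.6 in the KO control, which gave a log2 fold change of 0.60 ± 0.14 (SE; adjusted p = 0.000364, edgeR). Hist1h2ap, with 4.95, 4.84 and 4.77 TPM against 10.96, 9.59 and 9.06, differed by 1.06 ± 0.33 on the log2 scale (adjusted p = 0.00855). In both genes every KO library exceeded every WT library. H2ac4 (log2 fold change 1.02), H2ac13 (0.82) and H2ac8 (0.47) were the others. Only 1 of 8 H2B genes was called, H2bc11, with 3.50, 4.71 and 4.31 TPM in the WT control and 7.57, 7.61 and 8.01 in the KO control. Its log2 fold change of 0.91 ± 0.20 had the smallest adjusted p of the 28 genes (0.000179). H2bc12 (5.997, 6.08 and 6.79 against 6.02, 7.74 and 9.53 TPM) and H2bc4 (4.52, 4.89 and 4.88 against 5.03, 4.16 and 6.80) were not called.

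Among the H3 genes 3 of 6 were called higher: H3c6 (log2 fold change 0.92), H3c1 (0.74) and H3c3 (0.47). H3c3, the most abundant of them, was at 13.8, 14.6 and 14.9 TPM in the WT control and 22.6, 16.5 and 17.9 in the KO control (SE of the log2 fold change 0.17, adjusted p = 0.0275, edgeR). H3c10, with 7.11, 7.41 and 10.97 against 12.3, 11.8 and 11.1 TPM, was not called. Of the 3 H4 genes H4c2 and H4c9 were called. H4c2 stood at 2.57, 2.60 and 2.93 TPM in the WT control and 6.63, 5.61 and 3.06 in the KO control, which gave a log2 fold change of 1.02 ± 0.29. H4c9 differed by 0.30 ± 0.11, and its libraries overlapped (10.2, 12.6 and 13.9 against 15.04, 16.8 and 11.4 TPM).

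Replicate 3 of the WT control at 1440 min enters this fit through the estimate of the spread. Without it 16 genes were called higher at 0 min and none lower, and 11 of the 12 calls were kept. Shares over all genes are not given for this or other fits that leave libraries out, so counts from such fits cannot be set against them. The added genes were H1f1 (log2 fold change 0.55), H1f2 (0.38), H2bc14 (0.78), H3c10 (0.53) and H4c4 (0.72), and H1f0 was no longer called (-0.11, adjusted p = 0.0519, edgeR). Without replicate 1 of both lines at 0 min, 3 genes were called in place of 12. RNAs without a poly(A) tail summed to 29.2, 29.8 and 30.3 TPM in the WT control and 25.8, 25.7 and 19.3 in the KO control at 0 min. Their part in the histone values was not tested.

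**Figure D3:**
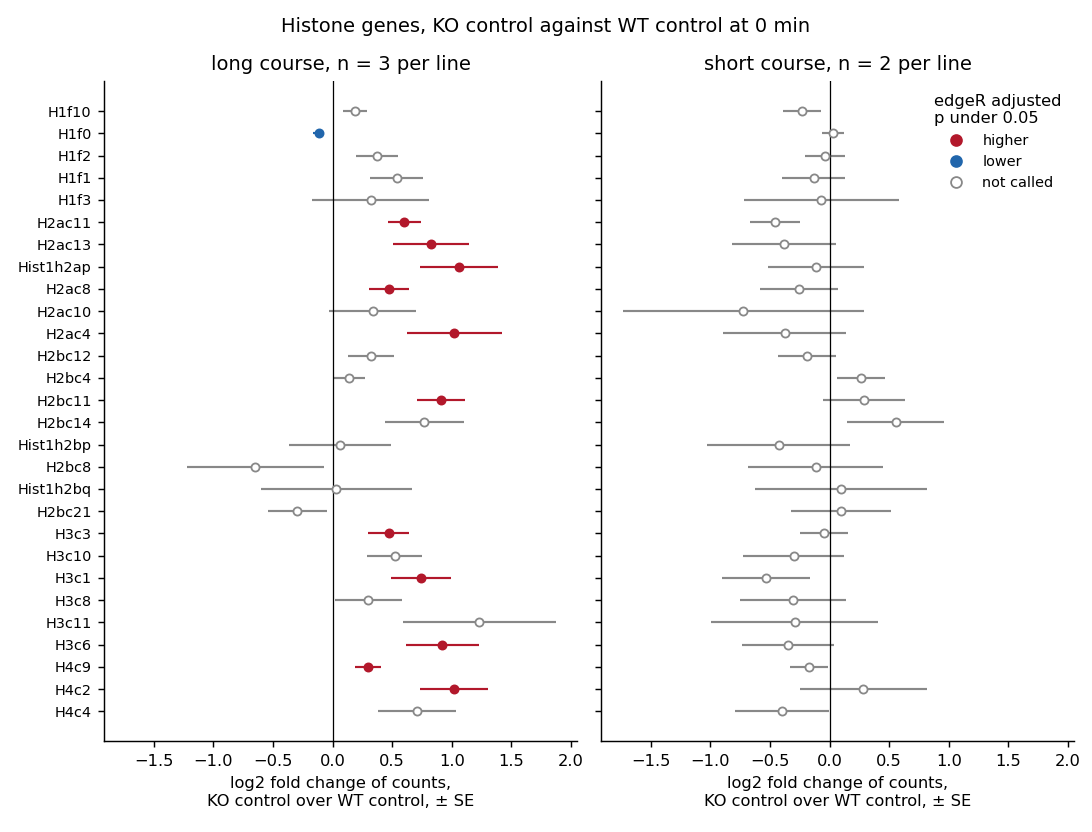
Log2 fold change of counts with its standard error for each of the 28 histone genes, KO control over WT control at 0 min, in the long and the short course. In the long course 25 of 28 values lie above 0, and in the short course 21 of 28 lie below 0.

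The same comparison in the short course did not show this difference. At 0 min of that course none of the 28 genes was called in either direction (all genes tested, 3.41% higher and 4.1% lower; edgeR), 1 had an unadjusted p under 0.05, and DESeq2 called none. Here 21 of 28 log2 fold changes were negative, with a median of -0.18 against -0.00 over all genes. Summed levels of the 26 genes were 120 and 114 TPM in the WT control and 107 and 118 in the KO control, which overlapped. H2ac11, which the long course had called higher, had a log2 fold change of -0.46 ± 0.21 (adjusted p = 0.190, edgeR). The courses were fitted separately, and the difference between them was not tested.

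The line difference was also taken as the mean over all times. In the long course 10 genes were called higher in the KO control (all genes, 23.6%) and 1 lower (28.6%), with a median log2 fold change of 0.23 against -0.02. H2bc11 (0.61 ± 0.10), H2ac8 (0.56 ± 0.09), H2ac11 (0.37 ± 0.07), H3c3 (0.35 ± 0.08) and H2bc12 (0.35 ± 0.09) led the higher genes, and H1f0 was the lower one (-0.07 ± 0.02). Without replicate 3 of the WT control at 1440 min, 18 were called higher and 1 lower, and the median was 0.34. The share over all genes in that fit is not given. Leaving out replicate 1 or replicate 2 of both control lines left 7 and 6 calls. In the short course 3 were called higher (all genes, 23.7%) and none lower (22.1%): H2bc12 (0.23 ± 0.07), H4c2 (0.44 ± 0.15) and H2bc14 (0.34 ± 0.12). These 3 are a smaller share than that of all genes. Without replicate 2 of the KO control at 180 min, H2bc12 and H2bc14 were still called higher, H4c2 was not (0.32, adjusted p = 0.076, edgeR) and H4c9 was called lower (-0.12).

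The KO control replicates of that course also differed from each other. Replicate 2 was above replicate 1 in the summed level of the 26 genes at 11 of 12 times (medians 122 and 111 TPM), in H1f0 at 12 of 12 (32.4 and 29.7) and in RNAs without a poly(A) tail at 8 of 12 (49.2 and 40.2). With replicate 1 of both control lines left out, each had 1 library per time, so the spread came from the 2 transgene lines and the lone libraries were assumed to vary like those. H1f0 was then called higher in the KO control over the mean of all times (log2 fold change 0.15, adjusted p = 0.000178, edgeR). With replicate 2 left out in the same way it was called lower (-0.08, adjusted p = 0.0456), and H4c2 stood at -0.02. The part of any replicate difference in these values was not tested.

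In the KO control, histone transcripts were lower from 1440 min on. The 26 genes summed to 165, 155.6 and 164 TPM at 0 min and to 155, 176 and 172 at 720 min, which overlapped. They then stood at 137, 141 and 128 at 1440 min, 127, 128 and 128 at 2880 min, then 127, 128 and 134 at 5760 min. All 9 later libraries were below the 6 earlier ones. The 0 min libraries here are those of the comparison between the lines above, so the 2 comparisons are not independent. In the test over all times of the long course, 4 genes were called with a fall at the time of their largest change (all genes, 29.8%) and 2 with a rise (29.8%). The median log2 fold change was -0.48, against -0.06 over all genes, and 22 of 28 were negative. These calls are a smaller share of the histone genes than of all genes, in both directions.

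**Figure D4:**
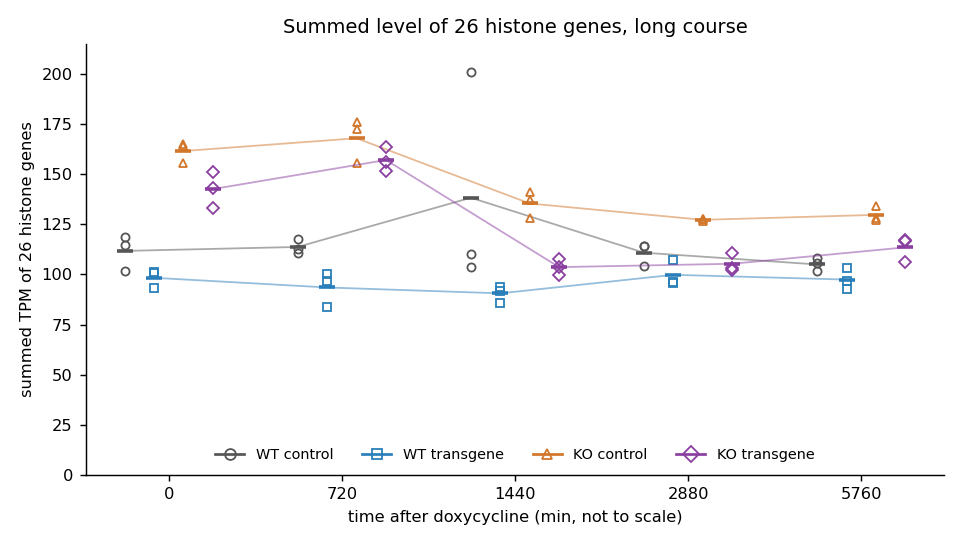
Summed TPM of the 26 replication-dependent histone genes in each library of the long course against time on doxycycline, with 1 point per library and a line through the means of each of the 4 lines. The KO control lies highest at 0 and 720 min and lower from 1440 min on, and 1 WT control library at 1440 min stands at 201 TPM.

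H2ac11 in the KO control was at 19.6, 21.3 and 25.6 TPM at 0 min, 20.3, 26.6 and 19.7 at 720 min, then 16.1, 14.99 and 12.98 at 1440 min. The 1440 min libraries were below all earlier ones, with a log2 fold change of -0.60 ± 0.14 against 0 min, and the gene was back at 20.96, 19.8 and 18.4 TPM by 5760 min. H2ac10, another H2A gene, went from 3.92, 3.78 and 6.03 TPM at 0 min to 0.581, 1.38 and 1.47 at 5760 min, a log2 fold change of -1.90 ± 0.44, with no overlap between these times. H4c9 was lowest at 2880 min, with 11.6, 10.03 and 9.18 TPM against 15.04, 16.8 and 11.4 at 0 min (-0.31 ± 0.11), and these groups overlapped. H1f0, the replication-independent linker gene, went the other way, from 30.3, 30.97 and 29.5 TPM at 0 min to 39.7, 37.6 and 37.4 at 5760 min (0.38 ± 0.04). The 3 latest libraries were the highest of the 15. H2bc4 was the other gene called with a rise (0.29 ± 0.13 at 5760 min).

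H1f10 was called with a fall of 0.23 ± 0.11 on the log2 scale of counts at 720 min, but its TPM did not fall. Counts scaled to library size (CPM) were 17.9, 18.2 and 16.2 at 0 min, then 14.6, 15.02 and 15.4 at 720 min, whereas TPM were 26.96, 27.4 and 29.4 and then 30.7, 29.6 and 29.0. The ratio of TPM to CPM of H1f10 ranged from 1.31 to 2.63 over all libraries, and that of H1f0 from 0.62 to 0.73. Its highest value was 2.01 times its lowest in H1f10 and 1.18 times in H1f0. Other genes came near H1f10 in this, with 1.95 in Hist1h2bq, 1.92 in H2ac11, 1.91 in H2ac4 and 1.89 in Hist1h2ap. The direction for H1f10 thus depends on the unit, and the cause was not tested.

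Taken time by time against 0 min, no histone gene was called in the KO control at 720 min (all genes, 4.46% higher and 4.38% lower; edgeR), 1 had an unadjusted p under 0.05, and DESeq2 was not run on single times. At 1440 min 3 were called lower (22%) and H1f0 higher (22.8%), the lower ones being H2ac11, H2bc11 (-0.53) and H2ac8 (-0.51). At 2880 min 7 were called lower (23%) and H1f0 higher (24.7%). These were H2ac4 (-1.35), H2ac10 (-1.36), H3c8 (-0.81), H1f1 (-0.56), H2bc11 (-0.53), H2ac11 (-0.34) and H4c9. The 3 lower genes at 5760 min (19.5%) were H2ac10, H3c1 (-0.68) and H1f1 (-0.60), with H1f0 higher (20.5%). Between 720 and 1440 min 2 genes were called lower (19%), H2ac11 (-0.46) and H4c9 (-0.42). Set against all genes, the lower calls at 2880 min were near the share. Those at the other times and in this step were below it. Without replicate 3 of the WT control at 1440 min, the test over all times called 8 genes with a fall, adding H1f1, H2ac4, H3c8 and H4c4 (-0.59). The share over all genes without that library is not given.

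In the WT control the summed level changed little apart from the 1 library set apart above. It was 102, 115 and 119 TPM at 0 min, 117, 113 and 111 at 720 min, 104, 110 and 201 at 1440 min, 104, 114 and 114 at 2880 min, then 106, 108 and 101 at 5760 min. The test over all times called 8 genes with a rise (all genes, 28.7%) and 3 with a fall (26.1%), shares close to or below those of all genes, with a median log2 fold change of 0.40 against -0.07. Without replicate 3 at 1440 min the calls were 5 and 2 and the median was -0.11. H1f3, H2bc14 and H3c1 lost their rise (1.34, 0.87 and 0.68 with the library, -0.16, -0.42 and -0.14 without it), and H3c8 lost its fall.

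The calls that stood with and without that library were 5 rises and 2 falls. H1f0 rose by 0.27 ± 0.04 at 5760 min on the log2 scale, H2bc4 by 0.42 ± 0.14 at 5760 min, H1f10 by 0.32 ± 0.11 at 2880 min, H2bc12 by 0.59 ± 0.20 at 1440 min and H4c2 by 1.16 ± 0.30 at 1440 min. Without the library H2bc12 stood at 0.41 and H4c2 at 0.80. H4c2 was at 2.57, 2.60 and 2.93 TPM at 0 min, 5.15, 4.91 and 7.96 at 1440 min, then 2.32, 2.64 and 2.38 at 5760 min, so its rise had ended by the last time. H2ac8 fell, from 5.20, 5.12 and 4.41 TPM at 0 min to 2.19, 2.24 and 2.80 at 1440 min (-0.90 ± 0.21), with no overlap. H2bc21, the gene on chromosome 3, had a log2 fold change of -0.79 ± 0.28 at 1440 min.

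Whether the KO control changed differently from the WT control was tested as a difference of the changes over time, a comparison added after the levels were seen. In the long course 1 gene was called, H4c2, with a difference of -1.34 ± 0.40 at 1440 min (adjusted p = 0.0475, edgeR; all genes, 8.93% called lower and 9.92% higher). Without replicate 3 of the WT control at 1440 min the value was -0.97 (adjusted p = 0.135) and no gene was called, and DESeq2 called none with all libraries. At 1440 min alone 4 genes were called lower (6.02%), H4c2, H2bc14 (-1.53), H3c6 (-1.29) and H3c1 (-1.03), with a median of -0.66 over the 28 genes against 0.05 over all genes. That time holds the library high in RNAs without a tail.

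Over the short course neither control line showed a change in most histone genes. In the WT control H1f0 was the only gene called (all genes, 12.1% higher and 9.65% lower), with a mean log2 fold change of 0.02 ± 0.05 over the 11 times after 0 min (adjusted p = 0.0343, edgeR) and -0.02 without replicate 1. In the KO control none was called (7.06% and 6.21%), 3 had an unadjusted p under 0.05 and DESeq2 called 1. The median log2 fold change there was 0.20 against 0.01 over all genes, and 0.09 without replicate 2 at 180 min. The difference between the lines called none (2.38% and 2.55%), with 1 at an unadjusted p under 0.05 and none by DESeq2.

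Before induction, the transgene lines were set against their controls to show what the lines differed in apart from the induced RNA. In the KO background no gene was called at 0 min of either course (long, 1.83% of all genes higher and 1.71% lower; short, 0.0666% and 0.0944%) by edgeR, with 2 at an unadjusted p under 0.05 in each and none by DESeq2. In the WT background of the long course H1f0 was called higher (0.16 ± 0.04; all genes, 7.22%), and H2bc12 (-0.69 ± 0.22) and H2bc11 (-0.72 ± 0.24) lower (5.94%). These calls rest on few libraries: without replicate 1 none was left, without replicate 2 or 3 of both lines at 0 min 1 was left, and without the WT control library at 1440 min 4 genes were called lower, with H1f1 (-0.64) and H3c3 (-0.53) added. In the short course H1f1 was called lower (-1.05 ± 0.28; 1.88% lower, 1.06% higher), with 3.07 and 2.79 TPM in the WT control and 1.75 and 1.09 in the WT transgene line. The libraries did not overlap. With either replicate of both lines left out at 0 min, 1 library per line remained, the spread came from the other groups, and the gene was not called.

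Induction of Firre in the KO background, measured as the change over time in the KO transgene line minus that in the KO control, was accompanied by a call in 1 histone gene of the long course, H1f0 (all genes, 5.97% lower, 5.56% higher). In the KO transgene line H1f0 was at 31.4, 30.8 and 33.2 TPM at 0 min, 27.9, 24.5 and 25.997 at 1440 min, then 33.8, 34.2 and 32.1 at 5760 min. In the KO control it was at 30.3, 30.97 and 29.5, then 32.3, 34.5 and 32.8, then 39.7, 37.6 and 37.4. The transgene line was lower at 1440 min, when the control was not, and the groups did not overlap at that time or at 5760 min. The difference of the changes was -0.38 ± 0.06 at 1440 min (adjusted p = 4.38e-06, edgeR), -0.34 at 2880 min and -0.25 at 5760 min. H1f0 was called in this comparison with each replicate left out in turn.

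The summed level of the 26 genes was also lower from 1440 min on in the KO transgene line. It was 151, 133 and 143 TPM at 0 min, 163, 152 and 156.3 at 720 min, 108, 99.8 and 104 at 1440 min, 103, 110 and 102 at 2880 min, then 106, 117 and 117 at 5760 min. As in the KO control, the 9 later libraries were below the 6 earlier ones. Not every gene followed the sum: the mean TPM at 1440, 2880 and 5760 min was below that at 0 min in 24, 23 and 21 of the 26 genes in the KO transgene line, and in 20, 23 and 22 in the KO control, where H2bc4 was called with a rise. At 1440 min 26 of the 28 differences of change between the 2 KO lines were negative, with a median of -0.31 against -0.00 over all genes, but only H1f0 was called (3.27% lower, 3.19% higher). Without replicate 3 of the WT control at 1440 min, H2ac10 was called as well over all times (1.79, adjusted p = 0.0456, against 0.0667 with the library; edgeR).

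Induction in the WT background gave 1 call in the long course, H2bc4, with a difference of changes of -0.66 ± 0.21 at 1440 min (adjusted p = 0.0472, edgeR; all genes, 5.63% lower, 4.16% higher). It was lost without the WT control library set apart at that time (-0.50, adjusted p = 0.206), and no gene was called with DESeq2. The WT transgene line itself stayed between 83.6 and 107 TPM in the summed level, with a median of 96.1 over its 15 libraries. The difference between the effects of induction in the 2 backgrounds called no histone gene in the long course (2.68% higher and 2.64% lower; edgeR), with 5 at an unadjusted p under 0.05 and none by DESeq2. Without the WT control library, H3c1 was called there (1.08, adjusted p = 0.0309).

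During the first 330 min no histone gene was called for induction in the KO background (0.744% higher and 1.08% lower; 4 at an unadjusted p under 0.05), in the WT background (0.505% and 0.194%; 1) or for the difference between them (0.0111% and 0.00555%; 1) by edgeR, and DESeq2 called none in the 3 comparisons. Summed levels of the 26 genes had a lowest, median and highest value of 91.9, 97.0 and 108 TPM in the WT transgene line and 104, 116 and 137 in the WT control. They were 91.9, 110 and 135 in the KO transgene line and 104, 116 and 180 in the KO control. The ranges overlapped in both backgrounds.

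**Figure D5:**
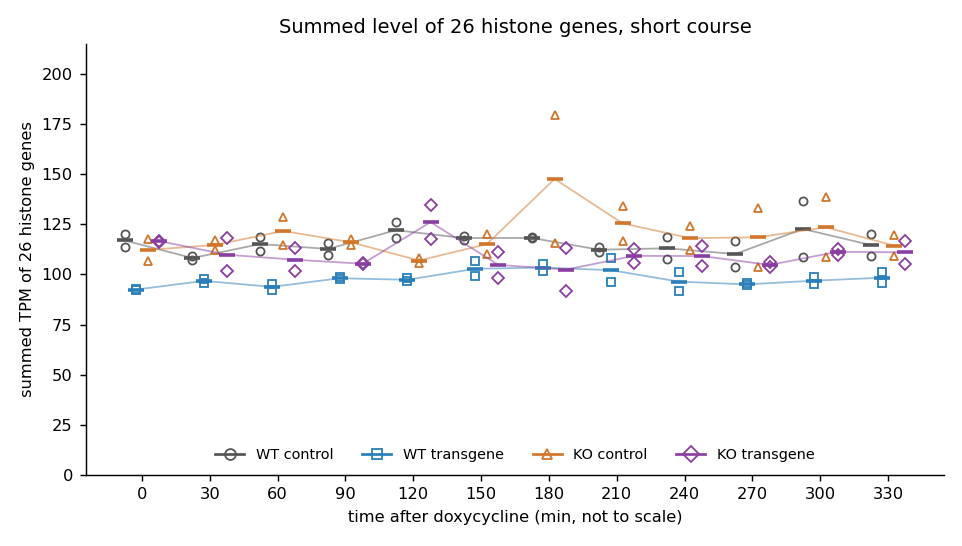
Summed TPM of the 26 replication-dependent histone genes in each library of the short course against time on doxycycline, with 1 point per library and a line through the means of each of the 4 lines. The WT transgene line lies lowest, with a median of 97.0 TPM, and 1 KO control library at 180 min stands at 180 TPM.

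The standing difference between each transgene line and its control, as the mean over all times including 0 min, was compared after the levels had been seen. In the long course 13 genes were lower in the WT transgene line (all genes, 17.1%) and 1 was higher (19%), with a median log2 fold change of -0.29 against -0.00. The lower ones were led by H3c10 (-0.57 ± 0.12), H2bc11 (-0.44 ± 0.11), H1f1 (-0.49 ± 0.12), H3c3 (-0.34 ± 0.09) and H4c2 (-0.53 ± 0.14), and H1f0 was higher (0.07 ± 0.02). Without the WT control library at 1440 min 9 were lower and 1 higher, with a median of -0.19, and leaving out replicate 2 or 3 of both WT lines left 8 and 6 calls. In the short course 7 were lower (20.6%) and 4 higher (22.1%). The lower genes were near the share of all genes and the higher ones below it. H1f1 was the gene with the clearest difference: its lowest, median and highest levels were 1.86, 2.59 and 3.67 TPM in the WT control and 0.874, 1.58 and 1.96 in the WT transgene line, a log2 fold change of -0.83 ± 0.09. The ranges barely overlapped.

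H1f2, another linker histone gene, went the other way in the short course, with 2.45, 2.97 and 3.94 TPM in the WT control and 2.80, 3.70 and 4.44 in the WT transgene line (0.28 ± 0.05), and the ranges overlapped. H1f10 (0.22), H2ac8 (0.24) and H2bc4 (0.17) were also higher, and Hist1h2ap (-0.43), H3c1 (-0.35), H2bc12 (-0.25) and H3c3 (-0.21) lower. With replicate 1 or 2 of both WT lines left out, 4 and 5 of the 28 were called, in fits whose spread came from the 2 KO lines. In the KO background 7 genes were lower in the transgene line in the long course (16.7%) and none higher (15.6%), among them H1f0 (-0.15 ± 0.02), H2ac8 (-0.38 ± 0.08), H3c3 (-0.33), H2bc12 (-0.33) and H2bc11 (-0.33), and without replicate 2 of both KO lines 4 were called. Over the short course 3 were lower (7.39%) and none higher (5.16%), H1f0 (-0.13 ± 0.03), H2ac8 (-0.35 ± 0.10) and H2bc12 (-0.21 ± 0.07), and 26 of 28 values were negative. Without replicate 2 of the KO control at 180 min H1f0 (-0.13) and H2ac8 (-0.37) were called lower, H2bc12 was not (-0.16, adjusted p = 0.129, edgeR), and 25 of 28 were negative.

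Genes that make, process and carry histones were read beside them at 0 min of the long course. Of 22 genes of histone transcription and 3′ processing, 5 were higher and 2 lower in the KO control, with a median log2 fold change of 0.02. Over all genes 16.5% were called higher and 18.6% lower, and the higher share of these 22 and the shares of the chaperones below lie near that. Lsm11, a subunit of the U7 particle that cleaves histone mRNA, was higher (0.67 ± 0.07), as were Coil, the coilin of Cajal bodies (0.31 ± 0.03), and cyclin E, Ccne1 (0.26 ± 0.04). Npat, the coactivator of histone loci, was lower (-0.20 ± 0.04), and Slbp was at -0.00. Of 10 genes of replication-independent variants, H1f10 included, 2 were higher and 4 lower, with H3f3b, an H3.3 gene, at 0.57 ± 0.03, H2az2 at 0.31, Macroh2a1 at -0.20 and H2ax at -0.32. Of 16 chaperone genes 4 were higher and 4 lower. Of 15 replication genes 2 were higher and 8 lower, with a median of -0.07, Cdc6 at 0.40, Tk1 at 0.23, Rrm2 at -0.19 and Mcm4 at -0.15. Most replication genes that were called were thus lower.

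Over the long course in the KO control, 12 of the 22 processing genes were called with a fall and 5 with a rise, against 29.8% of all genes each way. Ccne1 (-0.59 at 2880 min), Lsm11 (-0.47 at 1440 min) and Coil (-0.18 at 5760 min) were among the falls. Their fold changes at 0 min use the same KO control libraries and are not independent of these. Among the variants 5 were called each way, with H2ax at 0.72 at 2880 min and Macroh2a1 at 0.52. The 16 chaperones had 7 each way, and the 15 replication genes 5 rises and 6 falls, with Cdc6 at -0.37 at 1440 min.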

How the data were processed

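The authors deposited gene-level expected counts and TPM values for 60 libraries of the long and 96 of the short course, so named per the file headers. Salmon 1.5.2 and mm10 are named in the submitters' processing notes. The annotation and the way transcripts were summed to genes are not given in the sources used here. TPM summed to 924452 to 947484 per library and served for levels, and 76% of the expected counts were whole. Expected counts were rounded and tested with edgeR 4.0.16 in R 4.3.3 (filterByExpr with a minimum count of 10 and total of 15, TMM, robust quasi-likelihood), separately for the long course (17565 genes) and the short course (18009), with all 4 lines in each fit. The long course had 1 term per line and time and an F test with 4 degrees of freedom; the short course had a natural cubic spline with 3 degrees of freedom for time and 1 term per line and time for comparisons at 0 min and of means. For F tests the log2 fold change is that of the time with the largest change (long) or the mean over the 11 times after 0 min (short), and the SE is derived from F. Adjusted p-values are Benjamini-Hochberg over all genes tested, with a threshold of 0.05.

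Named genes were the 10 of highest mean TPM, H1f0, the 3 on each side of the count minimum, up to 5 called each way per comparison by adjusted p, and up to 4 per list; others were named after their values were seen. Members and lists were chosen with earlier results of these data known. Alternatives were DESeq2 1.42.0, RLE scaling, no filter, only the lines compared, a replicate block, leaving out each replicate number in the lines compared (at 0 min only, for comparisons at 0 min), and, chosen after seeing the data, leaving out 1 library per course. The test was checked on simulated data. The changed genes in that check had higher counts than many of the 28 genes, so it does not cover genes at low counts. Replicate numbers were not treated as pairs. Promoter and stem-loop searches used GENCODE M21 transcripts and RefSeq promoters.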

Additional observations from a re-analysis of the deposited data

Results flagged for a closer look

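The change over time of H4c2 differed between the control lines: the change in the KO control minus that in the WT control was -1.34 on the log2 scale at 1440 min, and the test of the difference passed the threshold in the long course with all libraries. It did not pass without the third WT control replicate at that time.

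The 40 histone genes below the count minimum, which enter no test here, summed to 123 TPM in the third WT control replicate at 1440 min and to 76.3 TPM in replicate 2 of the KO control at 180 min, against 13.3 to 43.0 TPM in the other 154 libraries. Both libraries were also the highest in RNAs made without a poly(A) tail, at 2283 and 1239 TPM. The part of that in the histone values was not tested.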

How the results depend on the processing

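Depth limits these values: the 26 genes held 588 to 2366 counts per library, and copies share sequence. Counts of the 28 genes called that moved by over 1.5 times are given here, with the leave-one-out range over replicate numbers. KO against WT control, 0 min long: 12, 3 to 10. Mean, long: 11, 6 to 16, and 19 without the WT control library at 1440 min; short: 3, 3 to 7, and 5 with no filter or only the lines compared. WT transgene, 0 min long: 3, 0 to 1, and 5 without that library; short: 1, 0 to 0, and 2 with no filter or only the lines compared. KO transgene, 0 min long: 0, and 1 with no filter. Over time, WT long: 11, 4 to 17, 7 without that library and 7 with the lines compared; KO long: 6, with 10 (no filter, or without that library) and 11 (lines compared); WT short: 1, 0 to 2, 2 with no filter and 0 for the mean over 11 times; KO short: 0, 3 with no filter and 1 with DESeq2. Induction in KO, long: 1, 3 with no filter, 2 without that library and 2 with the lines compared; in WT, long: 1, 0 to 1, 3 with no filter and 0 with RLE, DESeq2, the lines compared or without that library; their difference, long: 0, 3 with no filter and 1 without that library. With no filter the short course gave 1, 2 and 1 for these in place of 0. Transgene lines over all times: WT long 14, 6 to 14; WT short 11, 4 to 5; KO long 7, 4 to 8. KO change minus WT change, long: 1, 0 to 2, 5 with no filter and 0 with DESeq2 or without that library; short: 0, and 1 with no filter. The summed TPM of all 28 genes at 0 min long was 1.29 times as high in the KO control, 1.25 to 1.33 leaving out replicates, 1.15 with a minimum of 50 counts, 1.12 as CPM with TMM, 1.38 without H1f0 and 1.45 without H1f0 and H1f10. The direction turned, leaving out replicates, for H4c2 (-0.022 to 0.74) and H1f0 (-0.082 to 0.15) over the short-course mean, KO against WT control, and for H1f0 (-0.015 to 0.043) and Hist1h2bp (0.15, and -0.43 without replicate 2) over time in the WT short course. Over time in the WT long course it turned without that library for H1f3, H2bc14 and H3c1, and without replicate 3 for H2bc14 (-0.25) and H3c1 (-0.082). In the short course, leaving out a replicate of the lines compared leaves comparisons at 0 min and of means 1 library per line and time, assumed to vary like the other groups. Among values of the named genes 558 kept direction and side of the threshold, 80 lost the call, 1 gained it and 3 reversed. Causes were not tested. A fit with the replicate number as a block called 13 in place of 12 (KO against WT, 0 min long) and 1 in place of 0 over time in the KO short course, and changed the call of none of 74 single-gene values; replicate numbers were not taken to pair samples, since 0 of 3 correlations were over 0.1 in each 0 min comparison of the long course. That reason covers the long course only. The short course has 2 numbers, and its KO control replicates differed as described above. Over all groups of the short course, 52 of 2256 correlations between libraries of the same number were over 0.1. Their mean was 0.0107, against -0.0107 for libraries of the other number.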
